A study of Mus musculus with 6 samples.

Results

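The cytotoxic granule genes described here are 10 genes that CD8+ T cells use to build, load and fire lytic granules, or that act beside them in killing. They are *Gzma*, *Gzmb*, *Gzmk*, *Gzmm*, *Prf1*, *Nkg7*, *Srgn*, *Fasl*, *Ctsw* and *Serpinb9*, chosen by name out of the 78275 genes in the deposited table. All 10 had enough counts to be tested, among the 16105 genes that entered the comparison. Within the set, *Prf1*, *Nkg7* and *Gzmm*, grouped as genes that are transcribed before activation, were set against *Gzma*, *Gzmb* and *Gzmk*, granzymes whose transcription is known to depend on activation.

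RNA was sequenced from CD4-CD8+ TCRβhigh T cells of 3 wild-type (WT) mice and 3 BIT mice, all aged 9 to 10 weeks, with 1 library per mouse. BIT mice are homozygous for a knock-in on the C57BL/6 background in which the cDNA of *Psmb11*, the β5t subunit of the thymoproteasome, was placed at the first exon of *Psmb8*, which encodes the β5i subunit of the immunoproteasome, so that β5t replaces β5i in every cell that uses the *Psmb8* promoter. The knock-in is germline, so T cells and the cells that select them in the thymus carry it alike. The labels do not name the founder line, while the study states that it reports 1 line unless it says otherwise. The methods of the study and the source label name lymph nodes as the origin of the sorted cells, while the protocol in the labels names lymph nodes and spleens.

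In a lytic granule, perforin, the product of *Prf1*, makes pores through which granzymes, a family of serine proteases, enter the target cell and cleave its proteins. Serglycin, encoded by *Srgn*, is the proteoglycan that holds granzymes in the granule, NKG7 takes part in granule release, and Fas ligand kills through a separate receptor on the target. Naive CD8+ T cells are known to hold little granzyme mRNA, whereas effector and memory cells hold much more.

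The 6 libraries held between 37467678 and 52922675 estimated counts. *Psmb8* had 10790, 10345 and 8024 counts in WT and 73, 59 and 60 counts in BIT libraries, and *Psmb11* had 0 in each WT library against 1926, 1754 and 1226 in the BIT libraries, as the genotypes require. *Cd8a* and *Cd8b1*, the chains that define these cells, had between 28883 and 58092 counts in every library, whereas *Cd4* had between 8 and 38. The labels give all 6 mice as male, but WT replicate 3 had 66626 counts of *Xist*, which is transcribed from the inactive X chromosome, and 0 counts summed over *Ddx3y*, *Kdm5d*, *Uty* and *Eif2s3y*, 4 Y-linked genes that summed to between 8474 and 12329 in the other 5 libraries. *Xist* had 125 counts in BIT replicate 3 and between 2 and 9 in the other 4 libraries. WT replicate 3 also stood apart on the first principal component, which held 34.4% of the variance, at 54.6. BIT replicate 3 was next to it at 28.6, and the other 4 libraries lay between -36.5 and -3.31. Fold changes of the members are therefore given with and without WT replicate 3. Fold changes of other genes are given from all 6 libraries only, so those in which WT replicate 3 stands apart may rest on it.

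The 250 bases before the annotated start of the canonical transcript are shown for *Prf1* and *Nkg7*, the members that stood higher in every BIT library, and for *Gzma* and *Gzmb*, the members that varied most between mice. They were read from GRCm39 on the strand of the gene, from chr10:61133296-61133545 (plus) for *Prf1*, chr7:43086247-43086496 (plus) for *Nkg7*, chr13:113237525-113237774 (minus) for *Gzma* and chr14:56499718-56499967 (minus) for *Gzmb*. Capitals mark matches on either strand to TGTGGT (the core of the motif of RUNX factors), GGTGTGA (a T-box motif), TGANTCA (an AP-1 motif) or TGACGT (the core of the cAMP response element).
Prf1: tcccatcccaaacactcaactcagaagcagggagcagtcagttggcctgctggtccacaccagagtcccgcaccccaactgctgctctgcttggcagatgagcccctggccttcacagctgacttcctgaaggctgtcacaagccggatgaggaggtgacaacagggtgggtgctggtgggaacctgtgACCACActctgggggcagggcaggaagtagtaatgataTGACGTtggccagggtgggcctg
Nkg7: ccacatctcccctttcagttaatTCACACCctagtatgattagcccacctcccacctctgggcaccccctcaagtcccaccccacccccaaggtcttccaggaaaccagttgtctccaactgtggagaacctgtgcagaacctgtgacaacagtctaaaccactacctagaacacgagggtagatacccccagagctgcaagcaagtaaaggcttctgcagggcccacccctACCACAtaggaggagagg
Gzma: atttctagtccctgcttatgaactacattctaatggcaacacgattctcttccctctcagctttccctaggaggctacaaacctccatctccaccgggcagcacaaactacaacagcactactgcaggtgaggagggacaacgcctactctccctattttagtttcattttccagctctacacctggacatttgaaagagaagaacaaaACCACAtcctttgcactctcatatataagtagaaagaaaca
Gzmb: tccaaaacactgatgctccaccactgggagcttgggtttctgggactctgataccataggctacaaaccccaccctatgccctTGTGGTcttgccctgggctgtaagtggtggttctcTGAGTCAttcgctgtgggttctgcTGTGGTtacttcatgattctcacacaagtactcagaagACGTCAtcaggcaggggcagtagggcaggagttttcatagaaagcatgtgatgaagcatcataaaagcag

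In *Gzmb* the window held TGTGGT at positions -167 to -162 and -108 to -103, counted back from -1 just before the start, TGANTCA at -132 to -126 and TGACGT on the opposite strand at -70 to -65. In *Prf1* it held TGTGGT on the opposite strand at -61 to -56 and TGACGT at -23 to -18, and in *Nkg7* GGTGTGA at -227 to -221 and TGTGGT at -18 to -13, both on the opposite strand. *Gzma* had a single match, TGTGGT on the opposite strand at -41 to -36. Among the 10 members, TGTGGT was found in 6 windows (13% of all 21770 promoter windows of this length), TGACGT in 3 (6.49%), GGTGTGA in 2 (3.23%) and TGANTCA in 1 (6.17%). No match overlapped another. These are matches of letters and not measured binding sites.

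*Prf1*, the gene of the pore, and *Nkg7* were slightly higher in every BIT mouse than in every WT mouse, but neither passed the test. *Prf1* (ENSMUSG00000037202.7, chr10:61133546-61140461, plus strand) had log2 CPM, the log2 of the count scaled to library size (CPM) after quantile normalization, of 6.810, 6.706 and 6.695 in WT replicates 1 to 3 and of 6.988, 6.992 and 7.057 in BIT replicates 1 to 3. Every BIT library lay above every WT library. The log2 fold change was 0.275 ± 0.0746 (SE, n = 3 mice per genotype), a fold of 1.21 with a 95% confidence interval from 1.08 to 1.36 (limma, adjusted p = 0.424 over all genes). *Nkg7* (ENSMUSG00000004612.10, chr7:43086497-43087678, plus strand) had log2 CPM of 7.716, 7.789 and 7.846 in WT and 7.957, 8.004 and 7.93 in BIT mice. Here too the groups did not overlap, and the log2 fold change was 0.18 ± 0.0742 (SE), a fold of 1.13 from 1.01 to 1.27 (limma, adjusted p = 0.559). Without WT replicate 3 the log2 fold changes were 0.256 for *Prf1* and 0.215 for *Nkg7*, with adjusted p of 0.334 and 0.387 by limma. An exact permutation test on the 6 libraries gave p = 0.1 for each gene, the smallest that 3 mice against 3 allow. In bulk RNA, fewer cells that transcribe a gene and less RNA per cell cannot be told apart.

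Of the 10 members, 0 had an adjusted p below 0.05 by limma-voom, where 0.137% of the 16105 genes did, and 0 did so by edgeR or DESeq2. At an unadjusted p below 0.05, *Prf1* and *Nkg7* were higher in BIT mice, where 4.25% of all genes were, and *Srgn* was lower, where 4.32% were. Counting libraries that do not overlap gave 2 members wholly above WT (*Prf1* and *Nkg7*), against 7.38% of all genes, and 0 members wholly below, against 5.96%. *Prf1* and *Nkg7* stayed separated when CPM was scaled to the library total or by TMM. The median log2 fold change over the members was -0.0326, with 5 above 0 and 5 below, beside a median of 0.0118 over all genes.

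**Figure D1:**
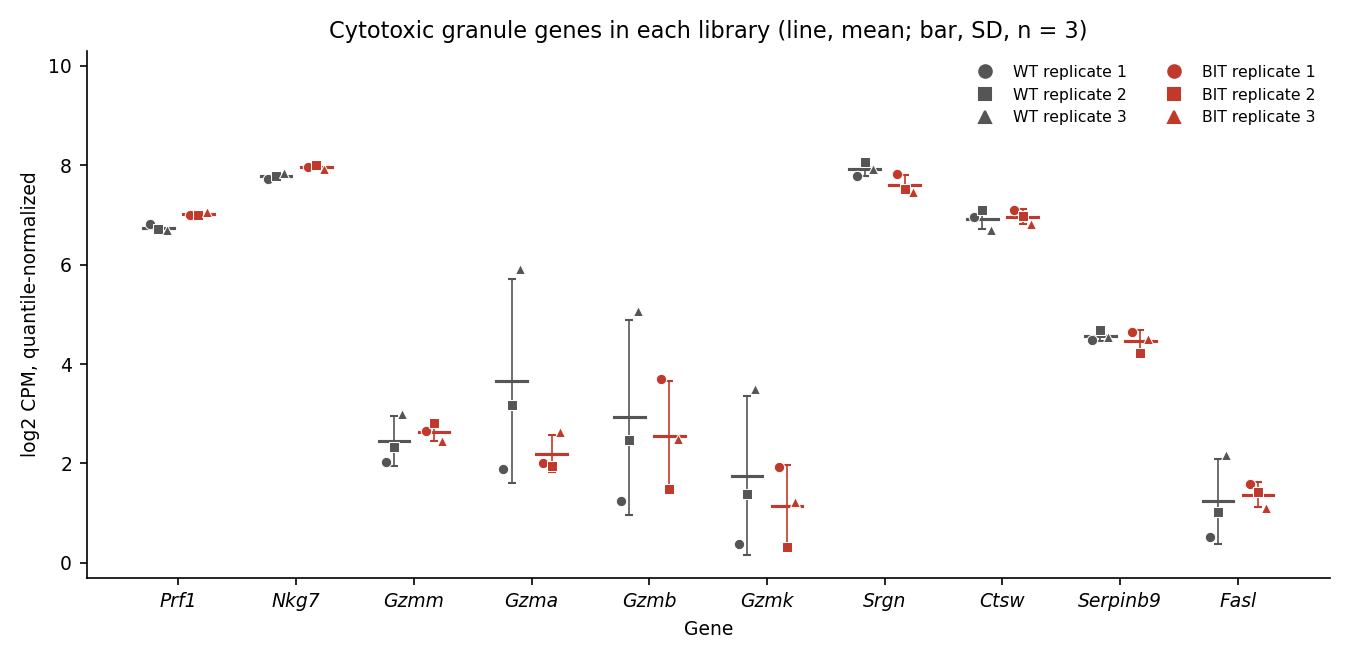
Log2 CPM after quantile normalization (vertical axis) of the 10 members in each of the 6 libraries, with the horizontal line at the mean and the bar showing the SD (n = 3 mice per genotype). *Prf1* and *Nkg7* are tightly grouped with every BIT point above every WT point, whereas *Gzma*, *Gzmb* and *Gzmk* spread widely, with WT replicate 3 (grey triangle) highest for all 3.

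Granzyme M, an enzyme of innate-like and resting cytotoxic lymphocytes, is encoded by *Gzmm* (ENSMUSG00000054206.3, chr10:79524854-79531095, plus strand). Its log2 CPM was 2.029, 2.325 and 3.004 in WT mice and 2.643, 2.815 and 2.448 in BIT mice, so that the BIT values lay within the WT range. The log2 fold change was 0.228 ± 0.246 (SE), with a 95% confidence interval from -0.33 to 0.786 (limma, adjusted p = 0.816). Without WT replicate 3 it was 0.473, from 0.0257 to 0.92 (limma, adjusted p = 0.407), and every BIT value above lay higher than WT replicates 1 and 2.

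The granzymes that depend on activation were the most variable members, and their values did not separate the genotypes. *Gzma* (ENSMUSG00000023132.9, chr13:113230355-113237524, minus strand) encodes a tryptase-like granzyme and had 182, 427 and 2444 counts in WT and 159, 152 and 258 counts in BIT libraries. On the log2 CPM scale these were 1.897, 3.167 and 5.91 in WT mice and 2.015, 1.946 and 2.635 in BIT mice. WT replicate 3 was far above the rest, WT replicate 2 was next, and WT replicate 1 was the lowest of all 6. The log2 fold change was -1.32 ± 1.05 (SE), with an interval from -3.71 to 1.06 (limma, adjusted p = 0.749), and without WT replicate 3 it was -0.343, from -1.19 to 0.503 (adjusted p = 0.738). It was further from 0 without WT replicate 1, at -2.26 (limma, adjusted p = 0.662), with replicate 3 as a batch, at -2.04 (limma, adjusted p = 0.192), and by edgeR and DESeq2, at -2.33 (adjusted p of 0.644 and 0.558), and in these fits its unadjusted p was below 0.05.

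*Gzmb* (ENSMUSG00000015437.6, chr14:56496295-56499717, minus strand) encodes granzyme B, the protease that activates caspases in the target cell. Its counts were 111, 268 and 1386 in WT and 547, 106 and 235 in BIT mice, or log2 CPM of 1.241, 2.475 and 5.075 in WT and 3.697, 1.477 and 2.492 in BIT mice. WT replicate 3 was again the highest, but BIT replicate 1 came next, above every other library. The log2 fold change was -0.194 ± 0.916 (SE), from -2.27 to 1.89 (limma, adjusted p = 0.965). Without WT replicate 3 the direction turned, to 0.744, from -0.651 to 2.14 (adjusted p = 0.657).

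*Gzmk* (ENSMUSG00000042385.15, chr13:113308142-113362442, minus strand) encodes the tryptase-like granzyme K and lies next to *Gzma* on the chromosome. It had 60, 126 and 490 counts in WT and 149, 45 and 104 in BIT mice, with log2 CPM of 0.3707, 1.396 and 3.501 in WT and 1.928, 0.3146 and 1.216 in BIT mice. The libraries fell in the same order as for *Gzmb* at the top, WT replicate 3 and then BIT replicate 1. Its log2 fold change of -0.48 ± 0.759 (SE; limma, adjusted p = 0.882) also turned without WT replicate 3, to 0.294 (adjusted p = 0.835).

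The other granzymes of the *Gzmb* cluster were close to absent. *Gzmc* had between 1 and 4 counts in each library, and *Gzmd*, *Gzme*, *Gzmf*, *Gzmg* and *Gzmn* had 0 in all 6. A count of 0 allows a level of up to 0.0567 CPM in the deepest library and 0.0801 CPM in the shallowest, by counting error alone.

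**Figure D2:**
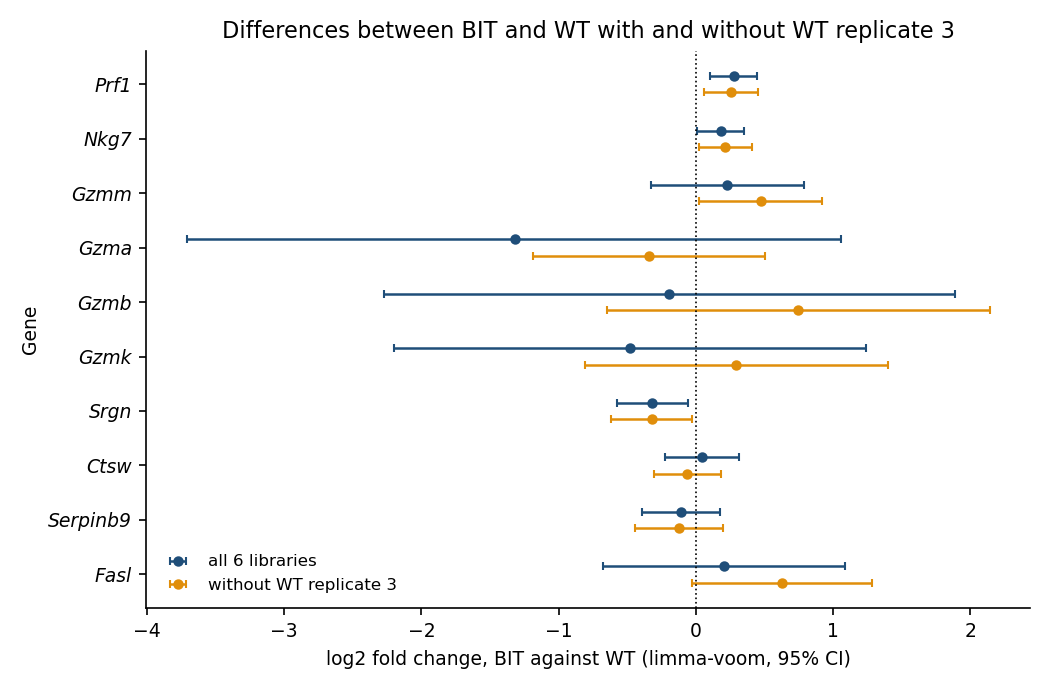
Log2 fold change of BIT against WT (horizontal axis, limma-voom, with 95% confidence intervals) for each member, from all 6 libraries (blue) and without WT replicate 3 (orange). The intervals of *Prf1*, *Nkg7* and *Srgn* lie on 1 side of 0 in both fits, those of *Gzma*, *Gzmb* and *Gzmk* cross 0 in both, and the estimates for *Gzmb*, *Gzmk* and *Ctsw* change side.

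Of the members that package or restrain the proteases, serglycin differed most. *Srgn* (ENSMUSG00000020077.15, chr10:62329029-62363238, minus strand) had log2 CPM of 7.782, 8.061 and 7.917 in WT and 7.823, 7.518 and 7.469 in BIT mice. BIT replicate 1 lay within the WT range and the other BIT libraries lay below it. The log2 fold change was -0.316 ± 0.115 (SE), a fold of 0.803 from 0.671 to 0.962 (limma, adjusted p = 0.537), and -0.322 without WT replicate 3 (adjusted p = 0.4). With edgeR and DESeq2 the log2 fold change was -0.235 and -0.231, and neither gave an unadjusted p below 0.05.

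*Ctsw* (ENSMUSG00000024910.6, chr19:5515071-5518535, minus strand), which encodes cathepsin W, a cysteine protease of cytotoxic lymphocytes, had log2 CPM of 6.948, 7.107 and 6.704 in WT and 7.105, 6.974 and 6.816 in BIT mice. The ranges overlapped, and the log2 fold change was 0.0446 ± 0.119 (SE; limma, adjusted p = 0.935), or -0.0635 without WT replicate 3. *Ctsw* overlaps *Fibp* on the opposite strand, which had between 513 and 737 counts against 4241 to 6566 for *Ctsw*, and the strand setting of the counting is not given in the sources used here. *Serpinb9* (ENSMUSG00000045827.11, chr13:33187233-33201940, plus strand), an inhibitor of granzyme B that protects the killer cell itself, had log2 CPM of 4.474, 4.69 and 4.548 in WT and 4.647, 4.225 and 4.508 in BIT mice. Its values overlapped too, with a log2 fold change of -0.11 ± 0.126 (SE; limma, adjusted p = 0.827), or -0.122 without WT replicate 3.

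*Fasl* (ENSMUSG00000000817.11, chr1:161608258-161616075, minus strand), the ligand of the death receptor Fas, had 67, 97 and 211 counts in WT and 115, 102 and 96 in BIT mice. Its log2 CPM was 0.5182, 1.021 and 2.167 in WT and 1.589, 1.422 and 1.105 in BIT mice, with every BIT value inside the WT range. The log2 fold change was 0.203 ± 0.389 (SE; limma, adjusted p = 0.907), and 0.625 without WT replicate 3 (adjusted p = 0.438).

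Per length, the members spanned a wide range of levels. In CPM (scaled by TMM) per kb of annotated exon, *Nkg7* was the highest, at 234 ± 4.59 in WT and 277 ± 13.4 in BIT mice (SD, n = 3 per genotype), and *Fasl* was the lowest, at 1.41 ± 0.994 and 1.29 ± 0.0876. The geometric mean of *Nkg7* was 204 times that of *Fasl*, and between 94 and 352 times in single libraries. *Srgn* followed *Nkg7*, at 82.7 ± 6.68 in WT and 70.2 ± 11.7 in BIT mice, then *Ctsw* at 63.4 ± 9.47 and 67.8 ± 8.49, and *Prf1* at 39.6 ± 3.35 and 49.6 ± 0.417. These levels were in the same order in both genotypes. *Prf1* lay above the next member, *Gzma*, in 6 of 6 libraries.

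Below *Prf1* the order was not settled by the spread between mice. *Gzma* stood at 15.1 ± 19.2 CPM per kb in WT and 2.99 ± 1.03 in BIT mice and exceeded *Serpinb9*, at 4.89 ± 0.398 and 4.57 ± 0.706, in only 2 of 6 libraries. *Gzmb* had 9.34 ± 11.6 and 4.95 ± 3.69 CPM per kb, *Gzmm* 3.91 ± 1.61 and 4.16 ± 0.408, and *Gzmk* 3.67 ± 4.02 and 1.73 ± 0.887. The 4 members *Gzma*, *Serpinb9*, *Gzmb* and *Gzmm* thus could not be ranked against each other, since neighbours changed place between libraries. *Srgn* exceeded *Ctsw* in 5 of 6 libraries, *Gzmm* exceeded *Gzmk* in 5 of 6, and *Gzmk* exceeded *Fasl* in 5 of 6.

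**Figure D3:**
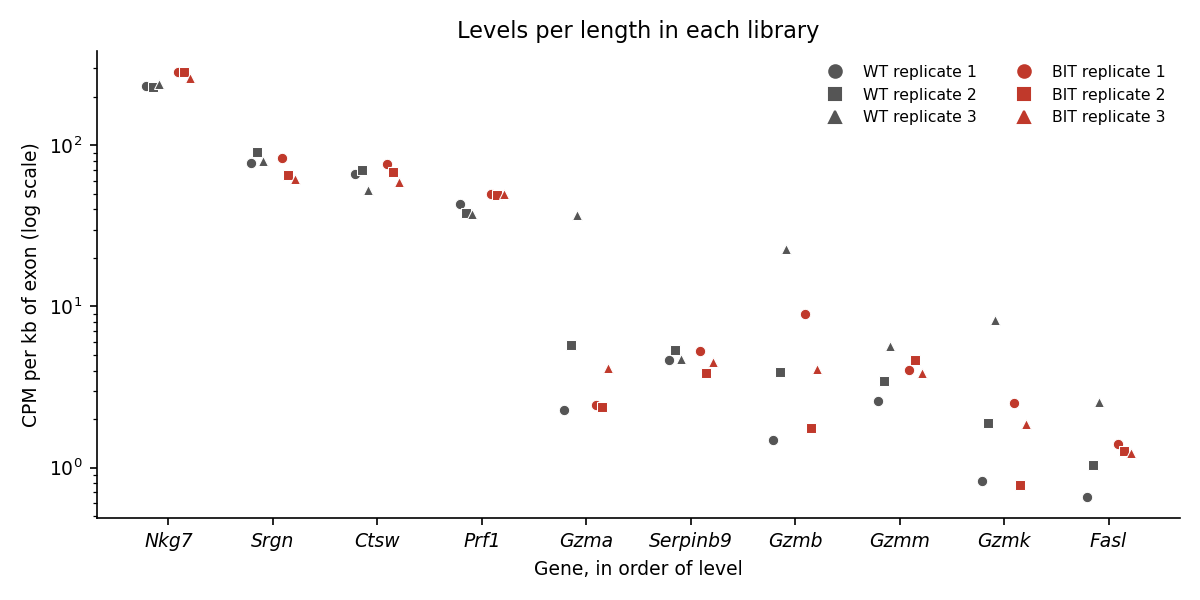
Levels of the 10 members in CPM (TMM) per kb of annotated exon (vertical axis, log scale) in each library, ordered from the highest to the lowest geometric mean. *Nkg7* is at the top and *Fasl* at the bottom, with a ratio of geometric means of 204, and the symbols of *Gzma*, *Serpinb9*, *Gzmb* and *Gzmm* overlap.

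The spread among mice of one genotype separated *Prf1* and *Nkg7* from *Gzma*, *Gzmb* and *Gzmk*. The pooled within-genotype SD of log2 CPM was 0.0528 for *Prf1* and 0.0534 for *Nkg7*, and among genes within 0.5 log2 CPM of their own level it ranked at percentiles 8.52 and 9.58. For *Gzma*, *Gzmb* and *Gzmk* it was 1.48, 1.59 and 1.27, at percentiles 99.6, 99.6 and 99.1. *Gzmm*, with an SD of 0.377 at percentile 80.7, did not share the small spread of *Prf1* and *Nkg7*, nor did it reach that of the other granzymes. *Fasl* had an SD of 0.623 (percentile 89.9), *Srgn* 0.167 (80.6), *Ctsw* 0.176 (81.2) and *Serpinb9* 0.171 (68.3).

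Between the lowest and the highest mouse, *Prf1* differed by 1.08-fold in WT and 1.05-fold in BIT mice, and *Nkg7* by 1.09-fold and 1.05-fold. *Gzma* differed by 16.2-fold among WT mice but 1.61-fold among BIT mice, *Gzmb* by 14.3-fold and 4.66-fold, and *Gzmk* by 8.76-fold and 3.06-fold. The wide range in WT mice was that of WT replicate 3. The median SD was 1.48 for *Gzma*, *Gzmb* and *Gzmk* and 0.0534 for *Prf1*, *Nkg7* and *Gzmm*, a ratio of 27.6, which was 14.7 without WT replicate 3 and 17.5 with TMM normalization. The median of 0.0534 is the value of *Nkg7*, and the SD of *Gzmm*, at 0.377, was far above it. The ratio thus mainly sets *Prf1* and *Nkg7*, at higher levels, against *Gzma*, *Gzmb* and *Gzmk*. These groups were set against each other with earlier results known, so the ratio is a description and carries no test.

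**Figure D4:**
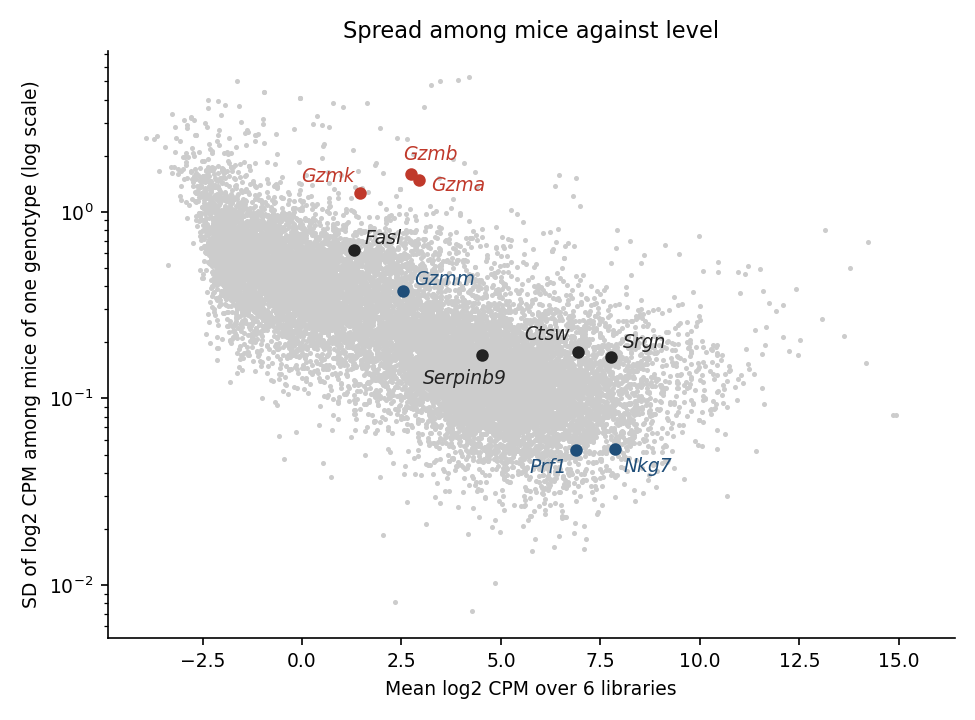
Pooled SD of log2 CPM among mice of one genotype (vertical axis, log scale) against mean log2 CPM over the 6 libraries (horizontal axis) for all 16105 genes (grey), with *Prf1*, *Nkg7* and *Gzmm* in blue, *Gzma*, *Gzmb* and *Gzmk* in red and the other members in black. *Gzma*, *Gzmb* and *Gzmk* lie at the upper edge of genes of like level, *Prf1* and *Nkg7* near the lower edge, and *Gzmm* between them.

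Since *Prf1* varied little within each genotype, counts of the other members relative to *Prf1* show the mix in each mouse. Between genotypes *Prf1* is not neutral, since its fold of 1.21 in BIT against WT mice lowers every BIT percentage beside WT. *Gzma* counts were 3.03%, 8.85% and 58% of *Prf1* counts in WT mice and 2.83%, 2.79% and 4.89% in BIT mice. *Gzmb* counts were 1.85%, 5.56% and 32.9% of *Prf1* counts in WT and 9.73%, 1.95% and 4.46% in BIT mice. *Nkg7* counts, by contrast, were between 183% and 222% of *Prf1* counts in all 6 libraries. *Gzmm* counts were 3.3%, 5% and 8.5% in WT and 4.45%, 5.22% and 4.3% in BIT mice.

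The ratio of *Gzma* to *Gzmb* counts was not the same in all libraries, and BIT replicate 1 alone was far from the others. *Gzma* counts were 164%, 159% and 176% of *Gzmb* counts in the WT libraries, 143% and 110% in BIT replicates 2 and 3, and 29.1% in BIT replicate 1. BIT replicate 1 thus had more *Gzmb* than every library but WT replicate 3 without more *Gzma*. *Gzmk* counts were between 27.2% and 54.1% of *Gzmb* counts in all 6 libraries.

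The genes whose profiles over the 6 libraries were most like those of the variable granzymes were found by the root mean square difference of log2 CPM, each gene centred on its own mean, among 16104 other genes. For *Gzmb* the nearest gene was *Gzmk*, at 0.302, and for *Gzmk* it was *Gzmb*. *Itgax*, an integrin subunit (0.513 from *Gzmb* and 0.308 from *Gzmk*), *Klrg1*, an inhibitory receptor of effector cells (0.514 and 0.409), and the gene ENSMUSG00000132112 (0.558 and 0.429) were near both. *Lilrb4b* (0.581) was the fifth for *Gzmb*, and *Havcr2*, which encodes the inhibitory receptor TIM-3 (0.336), was among the 5 for *Gzmk*.

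For *Gzma* the nearest genes were *Cx3cr1* (0.499), the fractalkine receptor of effector cells, *S100a4* (0.506), *Zeb2* (0.57), a transcription factor of effector cells, *Cmklr1* (0.574) and *S1pr5* (0.598), a receptor for sphingosine 1-phosphate. *Cx3cr1* had 111, 139 and 845 counts in WT and 70, 28 and 110 in BIT mice, and *Klrg1* had 36, 49 and 336 in WT and 55, 17 and 30 in BIT mice. In all of these genes WT replicate 3 held the highest count, which follows from picking them for profiles like those of the granzymes. *Prf1* was at 1.37 from *Gzmb*, the 10041st of the 16104 genes. With 6 libraries, of which WT replicate 3 weighs most, these distances are a description of likeness only.

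**Figure D5:**
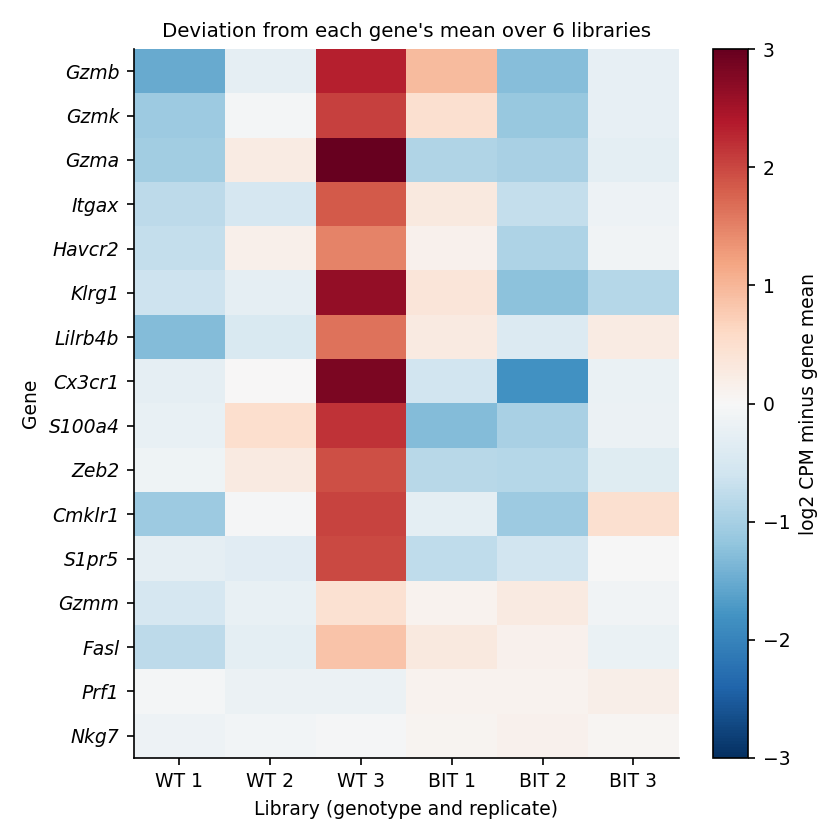
Log2 CPM of members and of the named genes with the most similar profiles, each minus its own mean over the 6 libraries (colour, red above and blue below), with libraries in columns. WT replicate 3 is red for *Gzma*, *Gzmb*, *Gzmk* and their nearest genes, BIT replicate 1 is red for *Gzmb* and *Gzmk* but blue for *Gzma*, and *Prf1* and *Nkg7* are pale throughout.

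Other measures were also high in WT replicate 3, the library with the high granzyme counts. The summed level of 9 effector cell genes, in CPM of the library total, was 603, 552 and 853 CPM in WT and 472, 450 and 658 CPM in BIT mice. Most of this sum was *Itga4*, an integrin subunit, at 521, 464 and 708 CPM in WT and 396, 378 and 563 CPM in BIT mice, and the other 8 genes summed to 82.3, 87.6 and 145 CPM in WT and 75.8, 71.2 and 94.4 CPM in BIT mice. The summed level of 10 proliferation genes was 34, 55.2 and 112 CPM in WT and 49.4, 47.5 and 50.3 CPM in BIT mice. Each of these sums, and *Itga4* itself, was highest in WT replicate 3. The effector list holds *Klrg1*, *Cx3cr1* and *S1pr5*, which were also among the nearest profiles above, so its sum is not a separate measure from them. The next highest effector sum was that of BIT replicate 3, at 658 CPM. BIT replicate 1, which came next after WT replicate 3 for *Gzmb* and *Gzmk*, had 472 CPM. The 8 markers of NK cells, which also carry granzymes, summed to 5.88, 7.38 and 10.2 CPM in WT and 6.95, 9.53 and 8.83 CPM in BIT mice. This sum too was highest in WT replicate 3. *Ncr1*, which defines NK cells, did not follow the sum. It had 11, 21 and 11 counts in WT and 1, 14 and 7 in BIT mice, with the highest in WT replicate 2. Of the 5 markers of mast cells and basophils, *Mcpt8* and *Fcer1a* were at 0 in all libraries and the sum was between 1.42 and 2.35 CPM. The part of effector cells, dividing cells, sex and NK cells in the granzyme counts of this library was not tested.

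Other cells were rare in the libraries. Markers of myeloid cells (8 genes) summed to between 10.6 and 19.5 CPM in WT and 8.87 and 12.7 CPM in BIT mice, those of B cells and plasma cells (8 genes) to between 33.2 and 41.4 and between 25.8 and 33.6 CPM, and those of CD4 T cells (4 genes) to between 3.62 and 5.68 and between 3.22 and 4.48 CPM. The 10 T cell identity genes summed to between 5110 and 5750 CPM over all 6 libraries. Among the listed markers of γδ T cells and NKT cells, 5 of 8 were in the table and 3 were tested, and these summed with the untested ones to between 9.83 and 11.9 CPM in WT and 15.3 and 20.4 CPM in BIT mice. The single gene of all these lists that passed the test was *Scart2*, a scavenger receptor family gene of γδ T cells, with 127, 133 and 140 counts in WT and 286, 346 and 338 in BIT mice (log2 fold change 1.53, limma, adjusted p = 0.0222). *Scart1*, named after its values were seen, had 132, 109 and 159 counts in WT and 187, 300 and 242 in BIT mice (1.11, adjusted p = 0.269). *Trdc*, the constant region of the TCRδ chain, had 266, 247 and 173 counts in WT and 205, 150 and 180 in BIT mice (-0.0995, adjusted p = 0.917). *Zbtb16* had 11, 7 and 3 counts in WT and 7, 2 and 3 in BIT mice. The higher sum in BIT mice thus went with *Scart1* and *Scart2*, and not with *Trdc* or *Zbtb16*.

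The machinery that moves and releases granules did not pass the test in either direction, with 0 of 16 tested genes called. Over all genes the share called was 0.137%, also for the lists that follow. At an unadjusted p below 0.05, 0 were higher and 1 was lower, where 4.25% and 4.32% of all genes were. The lower gene was *Sytl1*, an effector of RAB27 in vesicle docking, with a log2 fold change of -0.41 (limma, adjusted p = 0.571). *Sytl2*, a related docking protein (0.241, adjusted p = 0.645), and *Lamp2*, a membrane protein of lysosomes (-0.177, adjusted p = 0.681), had the next smallest p. The median log2 fold change of these 16 genes was -0.00811, beside 0.0118 over all genes. *Vamp7* was not listed under that symbol and *Syt7* was not tested.

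Among the proteases that mature granzymes and the serpins and cystatins that inhibit proteases, 0 of 9 tested genes were called, and the median log2 fold change was -0.0488. *Serpinb6a*, an intracellular serpin, was the single gene at an unadjusted p below 0.05, with 576, 629 and 481 counts in WT and 441, 352 and 364 in BIT mice (log2 fold change -0.327, limma, adjusted p = 0.559). At that threshold 4.32% of all genes were lower in BIT mice. *Ctsh* and *Ctsl*, which encode lysosomal cathepsins, followed at -0.686 (adjusted p = 0.669) and -0.208 (adjusted p = 0.714).

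Of the 9 death ligands, receptors and cytokines, 0 were called, and the median log2 fold change was -0.18. *Tnf*, which encodes the cytokine TNF, had 401, 321 and 250 counts in WT and 200, 103 and 190 in BIT mice. Each BIT value lay below each WT value, also in log2 CPM, as for 5.96% of all genes. Its log2 fold change was -0.751 (limma, adjusted p = 0.531). *Tnfsf10*, the death ligand TRAIL, was at 0.286 (adjusted p = 0.63) and *Xcl1*, a chemokine of activated CD8+ T cells, at -0.417 (adjusted p = 0.687).

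Transcription factors known to act on these genes were also not called, 0 of 10. At an unadjusted p below 0.05, 4 were higher, where 4.25% of all genes were, and 1 was lower, where 4.32% were. The list was chosen with earlier results known, so these counts are a description only. *Eomes*, known to drive *Prf1* in CD8+ T cells, had 4314, 3644 and 4088 counts in WT and 5917, 6535 and 5120 in BIT mice. Every BIT library lay above every WT library, as for 7.38% of all genes. The log2 fold change of *Eomes* was 0.692 ± 0.114 (SE; limma, adjusted p = 0.112). *Hopx* (0.35, adjusted p = 0.531) and *Tbx21*, the gene of T-bet (0.752, adjusted p = 0.538), were next. For *Tbx21* the groups overlapped, with 825, 799 and 1450 counts in WT and 1388, 1813 and 1172 in BIT mice. *Zfp683*, named after its values were seen, was at 0.588 (adjusted p = 0.575), and *Zeb2* at -1.3 (adjusted p = 0.575), with 201, 262 and 726 counts in WT and 96, 94 and 151 in BIT mice. The median over the 10 factors was 0.066.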

How the data were processed

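RNA of sorted CD4-CD8+ TCRβhigh T cells was depleted of ribosomal RNA and sequenced on paired ends. Per the labels and the methods of the study, the authors trimmed reads (cutadapt 1.18), aligned them to GRCm39 (STAR 2.7.0f) and estimated counts per gene (RSEM 1.3.1), versions being those in the submitters' processing notes. The deposited values are these estimated counts, not normalized, which divide ambiguous reads between genes. In them 84.8% of the values above 0 were exactly whole as written, with no tolerance. No stretch of 100 bases of a member's canonical transcript occurred in a transcript of another gene.

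Counts were rounded, genes kept with filterByExpr (edgeR 4.0.16), and BIT was compared with WT by voom with quantile normalization, lmFit and eBayes (limma 3.58.1, R 4.3.3) with Benjamini-Hochberg adjustment over 16105 genes. voom weights each value of a gene in a library by its precision, so a fold change can differ from the difference of the plotted means. Scripts were tested on simulated data. DESeq2 1.42.0, edgeR's quasi-likelihood test, TMM, other filters, quality weights per library, a replicate block, replicate 3 as a batch, replicates 1 and 2 alone and each mouse left out were alternatives. Levels per length used annotated exon bases of Gencode M39 on GRCm39, in which 10 of 10 member identifiers were found without their version. Promoter windows came from the same annotation. Exact permutation tests were two-sided.

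The members and the gene lists were chosen with earlier results of these data known. Besides the members, the genes named are those of each list with an adjusted p below 0.05, otherwise from the biological lists the 3 with the smallest p, defining markers of other cell types, and the 5 nearest profiles of each of the 3 most variable members. Limits for counts of 0 cover counting error only. The labels do not say whether mice were littermates, and p-values measure the spread between these mice.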

Additional observations from a re-analysis of the deposited data

How the results depend on the processing

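Under the 15 alternatives, 0 of the 10 members had an adjusted p below 0.05, and at 0.1, or at 0.01 with more than 2-fold, the main fit also gave 0. Over all genes the number with an adjusted p below 0.05 was 22 and ran from 1 (without WT replicate 1) to 125 (DESeq2), being 14 with edgeR, 42 with replicate 3 as a batch, 71 with replicates 1 and 2 alone, and 4, 37, 9, 2 and 11 without WT replicate 2, WT replicate 3 and BIT replicates 1, 2 and 3. Members at an unadjusted p below 0.05 numbered 3 (8.57% of all genes did so in that fit) and, with a mouse left out, 1 to 4, being 1 (*Prf1*) without WT replicate 2 (4.78% of all genes), 1 (*Prf1*) without BIT replicate 2 (3.84%) and 4 without WT replicate 3 (11.7%). Of 150 fold changes of single members, 137 kept their sign and 13 turned, and 5 members turned under none, among them *Prf1*, whose log2 fold change lay between 0.237 and 0.329 with adjusted p of at least 0.102. *Gzmb* turned to 0.561 with quality weights, 0.8 with replicates 1 and 2 alone, 0.744 without WT replicate 3 and 0.362 without BIT replicate 2, and *Gzmk* to 0.101, 0.282 and 0.294 under the first 3 of these, while with a mouse left out they ranged from -1.08 to 0.744 and from -1.18 to 0.294. *Fasl* turned to -0.124 with edgeR, -0.118 with DESeq2 and -0.16 without WT replicate 1 (highest with a mouse left out 0.625), *Ctsw* to -0.0635 without WT replicate 3 and -0.0264 without BIT replicate 1, and *Serpinb9* to 0.00975 without BIT replicate 2 (lowest -0.207). *Gzma* had a log2 fold change of -2.33 with both edgeR (adjusted p = 0.644) and DESeq2 (adjusted p = 0.558). The ratio of median SDs (27.6) was 17.5 with TMM and 14.7 to 30 with a mouse left out, and the order of levels changed by 0 to 3 places. Apart from fits with fewer libraries, the cause was not tested. Same-numbered WT and BIT libraries correlated at 0.139, 0.0255 and 0.332 in their deviations from the group means, and 3 of 6 libraries correlated best with their own number, so the numbers were not taken as pairs. With the number as a replicate block, 0 members and 21 genes were called, 4 members and 12.4% of all genes had an unadjusted p below 0.05, and *Gzma* was among these 4, at -2.07 (limma, adjusted p = 0.241). With 3 mice per genotype, the 95% intervals of the fold ran from 0.0766 to 2.09 for *Gzma*, 0.207 to 3.69 for *Gzmb* and 0.217 to 2.37 for *Gzmk*.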

Other observations

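Among the effector cell genes, 0 of 9 had an adjusted p below 0.05 (limma), where 0.137% of all genes did. At an unadjusted p below 0.05, 1 was higher and 2 were lower in BIT mice, where 4.25% and 4.32% of all genes were. *Ifitm10* had 540, 364 and 405 counts in WT and 597, 759 and 660 in BIT mice. Each BIT value lay above each WT value, also in log2 CPM, as for 7.38% of all genes. Its log2 fold change was 0.846 (limma, adjusted p = 0.215). *Klrd1*, which encodes the CD94 chain of NK receptors, had 3061, 3242 and 2191 counts in WT and 2134, 1693 and 1829 in BIT mice (log2 fold change -0.424, adjusted p = 0.486), and *Il2ra*, the α chain of the interleukin-2 receptor, had 138, 115 and 141 in WT and 75, 69 and 67 in BIT mice (-0.59, adjusted p = 0.547). These genes did not have the profile of *Gzma* or *Gzmb*: in none of them was WT replicate 3 far above WT replicates 1 and 2. *Klrk1*, which encodes the activating receptor NKG2D, did show a high WT replicate 3, with 243, 258 and 876 counts in WT and 214, 179 and 424 in BIT mice, and *Klrc1*, the partner chain of CD94, had 167, 202 and 706 in WT and 213, 214 and 346 in BIT mice. Both of these were named after their values were seen.

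Of the 10 proliferation genes 0 were called and 9 had log2 fold changes below 0, where 7684 of all 16105 genes did, with a median of -0.333. Their summed level was 34, 55.2 and 112 CPM in WT and 49.4, 47.5 and 50.3 CPM in BIT mice. WT replicate 3 was thus the highest, and WT replicate 1 lay below every BIT library. *Ccnb2* (-0.638, adjusted p = 0.679), *Birc5* (-0.49, adjusted p = 0.737) and *Ccnb1* (-0.39, adjusted p = 0.773), genes of mitosis, had the smallest p. Of the 8 tested NK cell genes 0 were called, and *Klre1*, a lectin-like receptor of NK cells and some T cells, had 50, 77 and 132 counts in WT and 101, 155 and 145 in BIT mice (log2 fold change 1.04, limma, adjusted p = 0.508).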
